A study of Homo sapiens with 6 samples.

Results

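U87MGL, the derivative of the human glioblastoma line U87MG that the labels call non-invasive, was set against every other array of the series. It was measured on 2 of the 6 arrays, U87MGL2 and U87MGL3, chosen by their titles, and the other 4 arrays, of U87MG and U87MGR, were pooled. U87MG is an established line obtained from a cell repository and grown in medium with 10% serum. U87MGL and U87MGR, the latter called highly invasive, came from U87MG cells injected into the striatum of nude mice aged 6 weeks (BALB/c nu/nu, a strain without T cells). Tumour cells were taken back into culture and reinjected, 4 times in all. The derivatives thus share passage through mouse brain, which the parental cells lack. RNA came from cultured cells, and 5 ug of it were labelled with biotin for single-colour oligonucleotide arrays. Each group had 2 arrays, called biological replicates. What the numbers 2 and 3 in the derivatives' names mark, how many mice were used and whether a derivative is 1 clone are not stated, so the p-values measure only the spread between these samples.

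Glioblastoma cells spread by moving along vessels and fibre tracts, which calls on adhesion receptors, on the actin cytoskeleton and on enzymes that build, crosslink or digest the extracellular matrix. U87MG is a serum-grown line with mesenchymal traits, and its xenografts are known to grow as compact masses with little infiltration. Wnt signals, carried by secreted ligands through Frizzled receptors and restrained by antagonists such as DKK1, are among the pathways studied in glioma spread, and the Frizzled receptor FZD4 stands in the title of the series.

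A level below is a log2 probe set signal, and a difference is the U87MGL mean minus the mean of the other 4 arrays. A gene lay outside the range when both U87MGL arrays were above, or both below, all 4 others. Its gap is the log2 distance from the nearer U87MGL array to the nearest other array. Each gene was represented by its brightest probe set, and 13998 autosomal genes passed a floor of 4.73 on the mean level. The array medians were alike, at 5.29 to 5.35. Spiked-in control RNA did not part the arrays by group: U87MGL2, U87MGL3 and U87MGR2 lay within a distance of 1.41 of each other and at least 6.51 from U87MG replicate 1, U87MG replicate 2 and U87MGR3. U87MGR2 is therefore the one other array alike in spike-in signal, and the difference from it alone is given where it was over 1.5 times smaller or larger than the pooled one, as in 60 and 3 of the 152 named genes. U87MG replicate 2 stood apart in the 5′ probe set of 18S ribosomal RNA (12.52 against 6.00 to 7.98), and in U87MGR3 the 3′ probe set of GAPDH exceeded the 5′ one by 0.24, more than on the other arrays (0.03 to 0.07). The same measure of actin did not set U87MGR3 apart: it was 0.39 and 0.28 in U87MGL, 0.28 and 0.25 in U87MGR and -0.01 and 0.22 in U87MG. The glioma label was set against known markers. The astrocyte protein GFAP was near the floor in all arrays (5.21 to 5.45) and S100B below it (3.18 to 3.51), while the mesenchymal adhesion receptor CD44 was among the brightest genes (12.96 to 13.30) and the progenitor filament nestin (NES) lay at 7.27 to 9.61.

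U87MGL was marked by a few genes with wide gaps. PXDN, peroxidasin, which crosslinks collagen IV in basement membranes, was 10.2-fold brighter than in the other arrays, and THY1, the GPI-anchored surface glycoprotein CD90, 11.1-fold. The homeobox gene HOXB6, the zinc-finger pseudogene ZNF788P and TESPA1, an adaptor of T cell receptor signalling, were also called higher. MAN1C1, a mannosidase of the Golgi in N-glycan trimming, and SUGCT-AS1, an antisense transcript, were called lower. These 7 genes were the whole outcome of the limma test at an adjusted p under 0.05: 5 genes higher (0.0357% of the autosomal genes tested) and 2 lower (0.0143%). At an unadjusted p under 0.05 there were 634 higher (4.53%) and 518 lower (3.70%).

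PXDN had a level of 8.12 in U87MGL2 and 8.61 in U87MGL3, against 5.04 and 5.10 in U87MG and 4.91 and 4.98 in U87MGR. The other 4 arrays were close together and the U87MGL arrays far above them. The difference was 3.35 (SE 0.17), a fold of 10.2, with a limma adjusted p of 0.00296. A second PXDN probe set gave 7.15 and 7.54 in U87MGL and 3.87 to 4.46 in the others. THY1 had levels of 9.06 and 8.53 in U87MGL, 5.39 and 5.25 in U87MG and 5.61 and 5.01 in U87MGR. Its difference was 3.48 (SE 0.22, limma adjusted p = 0.007), an 11.1-fold higher signal, and both of its further probe sets lay outside the range on the same side. The other 4 arrays lay below the array medians (5.29 to 5.35) in PXDN and around them in THY1, so both folds rest on dim signals.

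HOXB6 had levels of 6.75 and 6.60 in U87MGL, while U87MG (4.28 and 4.19) and U87MGR (3.68 and 4.39) lay under the floor of 4.73. It differed by 2.54 (SE 0.22, limma adjusted p = 0.0256). ZNF788P was at 6.43 and 6.34 in U87MGL, 4.17 and 4.01 in U87MG and 4.39 and 4.16 in U87MGR (difference 2.20, SE 0.15, limma adjusted p = 0.00767). For TESPA1 the U87MGL levels were 6.75 and 6.25 and the others lay between 4.43 and 4.78 (difference 1.84, SE 0.19, limma adjusted p = 0.042). In all 3 genes the mean of the other arrays was under the floor, so their folds of 5.83, 4.60 and 3.59 rest on dim signals. They entered the test only because U87MGL was high. With no floor, limma called them as well (adjusted p 0.0193 for HOXB6, 0.00473 for ZNF788P and 0.033 for TESPA1).

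MAN1C1 fell: it was at 5.21 and 4.70 in U87MGL, 7.91 and 8.35 in U87MG and 7.41 and 7.60 in U87MGR. The U87MGL signal, which lay under the array medians and in U87MGL3 under the floor, was 7.28-fold lower (difference -2.86, SE 0.29, limma adjusted p = 0.0407), and a second probe set showed the same side (6.02 and 5.73 against 6.84 to 7.59). SUGCT-AS1 had levels of 4.65 and 4.01 in U87MGL and between 6.39 and 6.97 in the other arrays (difference -2.34, SE 0.23, limma adjusted p = 0.0407). Its U87MGL mean was under the floor, so it was tested only through the other arrays; with no floor its limma adjusted p was 0.033. SUGCT, a mitochondrial CoA transferase whose locus gives the antisense transcript its name, was chosen after its values were seen; its levels were 6.15 and 6.47 in U87MGL, 7.46 and 8.10 in U87MG and 7.64 and 7.93 in U87MGR. It lay outside the range on the same side as the antisense transcript without passing the test (difference -1.47, SE 0.22, limma adjusted p = 0.124). The strand that either probe set reads was not checked.

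The calls rest on few arrays. With U87MG and U87MGR given separate means, so that their difference from each other left the error, limma called 58 genes higher and 51 lower. With a block for arrays alike in spike-in signal it called 0 and 0 (142 and 126 at an unadjusted p under 0.05). With the replicate number as a block it called 3 and 0 (578 and 424 unadjusted), and HOXB6, TESPA1, MAN1C1 and SUGCT-AS1 lost their calls. The spike-in block compared U87MGL with U87MGR2 alone, the only other array of its block, so it had less to go on than the pooled fit. Against U87MGR2 alone, the 7 genes differed by 3.45 (PXDN), 3.18 (THY1), 3.0 (HOXB6), 1.99 (ZNF788P), 1.82 (TESPA1), -2.45 (MAN1C1) and -2.31 (SUGCT-AS1). Without U87MGL3, which leaves U87MGL2 alone and assumed to vary like the other arrays, limma called 0 and 0 (270 and 225 unadjusted), and without U87MGL2 it called 1 and 0 (235 and 173 unadjusted). Without any one of the other 4 arrays it called 2 to 4 higher and 0 lower.

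**Figure D1:**
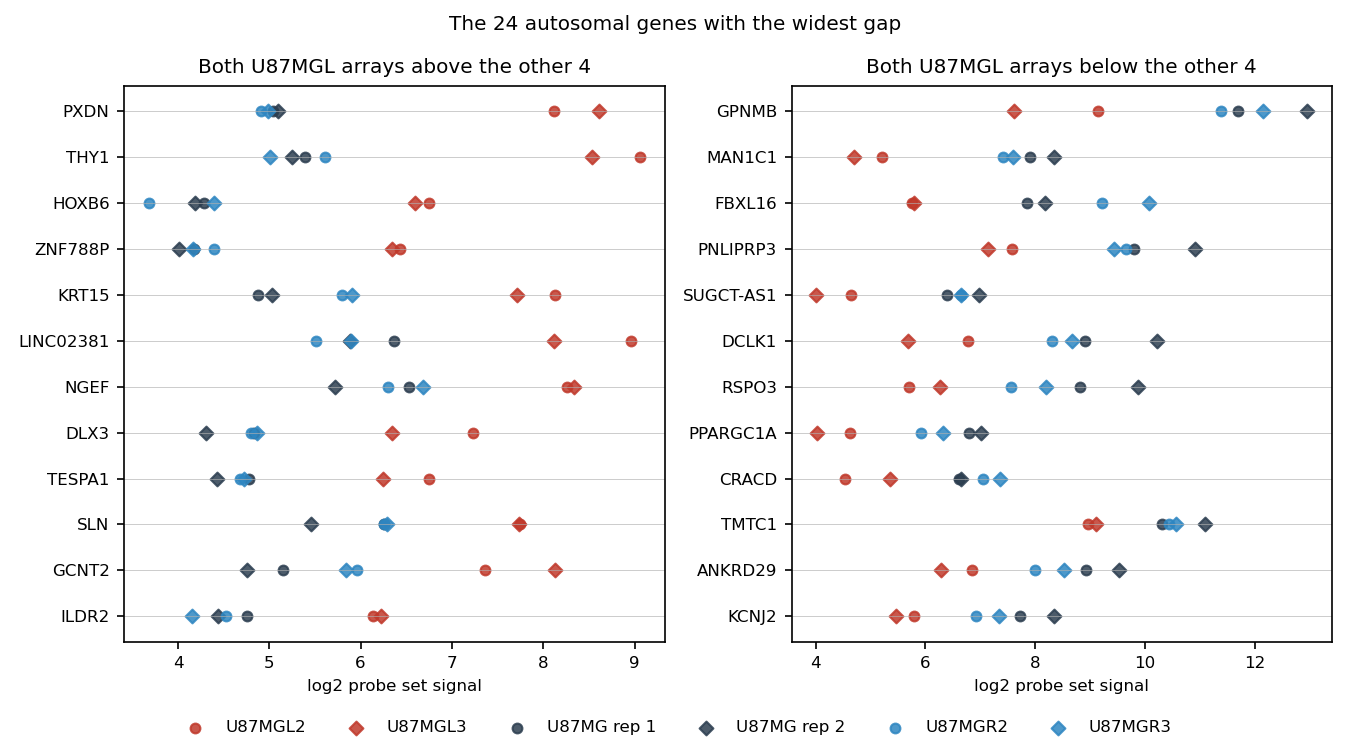
Log2 probe set signal (x axis) of the 12 autosomal genes with the widest gap on each side (y axis, widest at the top), 1 point per array, coloured by group with the replicates as circles and diamonds. Both U87MGL arrays stand clear of the other 4 in every row, by 3.02 in PXDN and 2.25 in GPNMB at the top and by 1.37 in ILDR2 and 1.12 in KCNJ2 at the bottom.

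Of the 12 genes with the widest gap above, 7 did not pass the test. KRT15, an epithelial keratin, was at 8.13 and 7.71 in U87MGL, 4.88 and 5.03 in U87MG and 5.80 and 5.91 in U87MGR (difference 2.52, SE 0.34, limma adjusted p = 0.117). U87MGR lay between the other groups there, which widened the spread of the pooled arrays. LINC02381, a long non-coding RNA, was at 8.96 and 8.12 against 5.51 to 6.36 (limma adjusted p = 0.0703). NGEF, which acts below Eph receptors, had 8.26 and 8.34 in U87MGL and 5.72 to 6.68 elsewhere. GCNT2, which adds branches to poly-lactosamine chains, had 7.36 and 8.13 in U87MGL and 4.75 to 5.96 elsewhere. The homeobox gene DLX3 differed by 2.09, SLN (sarcolipin, a regulator of the calcium pump of the reticulum) by 1.67 and the immunoglobulin-like receptor ILDR2 by 1.71, with gaps of 1.48, 1.44 and 1.37. In DLX3 and ILDR2 the other arrays were on average under the floor.

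Of the 12 with the widest gap below, 10 did not pass. GPNMB, a glycoprotein of melanosomes and lysosomes, had the largest difference of all autosomal genes tested: its levels were 9.14 and 7.62 in U87MGL, 11.69 and 12.96 in U87MG and 11.38 and 12.15 in U87MGR. U87MGL was 12.7-fold lower (difference -3.67, SE 0.53), but the replicates of each group spread widely and the limma adjusted p was 0.124. FBXL16, an F-box protein, was at 5.75 and 5.79 in U87MGL, 7.85 and 8.17 in U87MG and 9.22 and 10.07 in U87MGR, so the pooled arrays fell into separate levels (difference -3.05, SE 0.59, limma adjusted p = 0.203). DCLK1, a microtubule-binding kinase, was at 6.78 and 5.69 against 8.30 to 10.22. PPARGC1A, the coactivator of mitochondrial biogenesis PGC-1α, was at 4.62 and 4.03, under the floor, against 5.91 to 7.01. CRACD, an inhibitor of actin capping protein, was at 4.54 and 5.35 against 6.61 to 7.35. PNLIPRP3 (difference -2.60), a relative of pancreatic lipase, TMTC1 (-1.57), an O-mannosyltransferase of the endoplasmic reticulum, ANKRD29 (-2.17) and KCNJ2 (-1.95), an inward rectifier potassium channel, completed the set with RSPO3, described with the Wnt genes. Against U87MGR2 alone ANKRD29 differed by -1.42 and KCNJ2 by -1.29. In TMTC1 all 3 further probe sets lay below the range as well.

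In the whole autosomal set, both U87MGL arrays lay above the others in 1553 genes (11.1% of the 13998 tested) and below them in 1608 (11.5%). Most gaps were small, with a median of 0.10 above and 0.09 below. A gap over 0.5 was found in 117 genes above and 69 below, over 1 in 26 and 18, and over 2 in 3 and 3. The same count for U87MGR against the rest gave 1099 above and 1212 below, and for U87MG 2271 and 2381. The split depended on the scaling: quantile normalization gave 1192 above (8.52%) and 1796 below (12.8%), and median centring 1982 (14.2%) and 1222 (8.73%). A range set by fewer arrays is narrower, so counts can only rise when 1 of the 4 is left out: to 1901 (13.6%) and 2221 (15.9%) without U87MG replicate 2, and to 1997 (14.3%) and 2112 (15.1%) without U87MGR3. Counts of gene lists without these arrays are given where they rose by over 1.5 times. The sides were not spread alike over signal levels. Of the 4666 dimmest genes (mean level 4.73 to 6.64) 5.77% lay above and 16.9% below, and of the 4666 brightest 14.4% and 7.76%. Gaps over 0.5 in the dimmest genes ran the other way, with 50 genes above and 17 below. At the edge of the rule, TMEM14C above and CLIP2 below had a gap of 1e-04. ANKRD19P and ANKRD24, the nearest that stayed inside, had a gap of 0.00 and differed by 0.02 and -0.29 (0.01 and -0.05 from U87MGR2). In 22 of the 1553 genes above, the mean of the other arrays was under the floor, and in 112 of the 1608 below that of U87MGL.

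**Figure D2:**
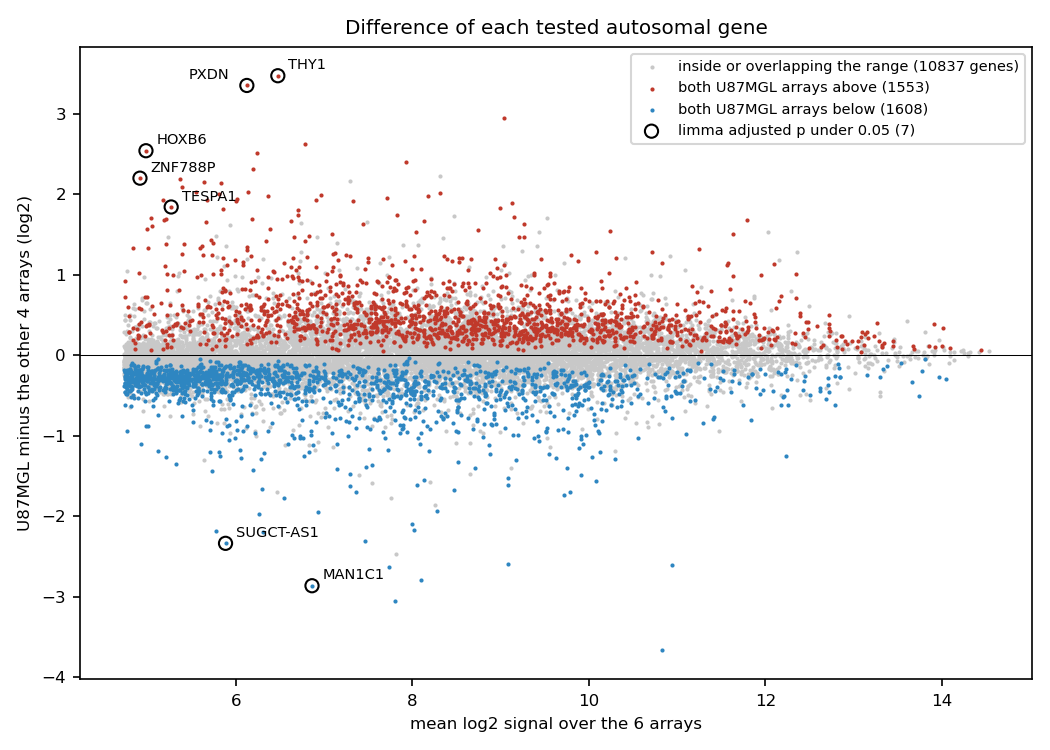
U87MGL mean minus the mean of the other 4 arrays (y axis, log2) against the mean signal over the 6 arrays (x axis, log2) for 13998 autosomal genes. Red and blue points are the 1553 genes above and the 1608 below the range, grey the rest, and circles the 7 genes called by limma, which have mean signals in the lower part of the scale.

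Probe sets that the choice of 1 per gene had left out offered a second reading on the same arrays. Of the 1553 genes above, 887 had a further probe set past the floor, and in 458 of them (51.6%) at least 1 was above the range too. For genes below it was 265 of 687 (38.6%). Over all tested autosomal genes with further probe sets the shares were 18.3% and 12.3%. Of the genes with a gap over 0.5 it was 46 of 53 above and 24 of 36 below. The pooled arrays often had an order of their own. In the 1553 genes above, both U87MGR arrays lay above both U87MG arrays in 579 (37.3%) and below them in 128 (8.24%), and in the 1608 genes below U87MGR lay below U87MG in 515 (32.0%) and above in 153 (9.51%). Over all genes tested these orders were found in 24.2% and 24.1%.

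Promoter windows of 300 bases (250 before to 50 after the start, RefSeq, GRCh38.p14, 5′ to 3′ on the strand of the gene, most upstream start) are shown for genes that carry the widest differences and for a pair of the zinc-finger genes described later. Capitals mark CpG dinucleotides, the sites of DNA methylation. Of the 24 genes with the widest gap, 14 had a promoter in the table.
PXDN: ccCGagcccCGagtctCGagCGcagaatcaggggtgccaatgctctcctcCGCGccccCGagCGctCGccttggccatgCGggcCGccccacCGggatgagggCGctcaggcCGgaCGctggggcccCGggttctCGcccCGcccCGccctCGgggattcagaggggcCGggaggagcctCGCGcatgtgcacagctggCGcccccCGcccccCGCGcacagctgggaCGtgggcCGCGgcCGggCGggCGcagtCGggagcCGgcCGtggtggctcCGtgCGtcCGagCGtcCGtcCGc
MAN1C1: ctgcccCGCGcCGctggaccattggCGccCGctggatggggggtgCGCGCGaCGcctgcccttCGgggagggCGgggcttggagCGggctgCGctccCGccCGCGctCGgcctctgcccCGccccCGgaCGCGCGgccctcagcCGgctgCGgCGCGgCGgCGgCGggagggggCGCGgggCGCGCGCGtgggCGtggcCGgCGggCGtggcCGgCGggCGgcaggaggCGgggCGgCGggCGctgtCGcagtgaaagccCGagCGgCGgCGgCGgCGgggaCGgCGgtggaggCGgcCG
GPNMB: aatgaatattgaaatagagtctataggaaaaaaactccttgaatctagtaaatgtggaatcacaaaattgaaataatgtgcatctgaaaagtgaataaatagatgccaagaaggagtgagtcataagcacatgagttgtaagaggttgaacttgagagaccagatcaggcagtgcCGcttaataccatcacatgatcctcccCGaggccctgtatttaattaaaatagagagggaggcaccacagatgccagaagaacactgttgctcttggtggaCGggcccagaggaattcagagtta
ZNF562: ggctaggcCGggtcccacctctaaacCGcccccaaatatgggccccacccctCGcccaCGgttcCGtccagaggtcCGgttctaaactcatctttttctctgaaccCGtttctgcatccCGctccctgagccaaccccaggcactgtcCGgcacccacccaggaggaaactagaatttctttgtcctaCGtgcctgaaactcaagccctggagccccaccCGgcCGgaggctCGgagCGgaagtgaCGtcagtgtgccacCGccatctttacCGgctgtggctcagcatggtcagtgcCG
ZNF823: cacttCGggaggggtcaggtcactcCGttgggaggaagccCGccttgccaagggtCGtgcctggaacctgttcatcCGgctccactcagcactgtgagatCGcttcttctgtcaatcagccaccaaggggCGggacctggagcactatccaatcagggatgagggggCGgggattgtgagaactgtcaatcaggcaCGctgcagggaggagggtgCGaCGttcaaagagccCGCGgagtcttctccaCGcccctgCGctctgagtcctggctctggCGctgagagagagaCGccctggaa
The PXDN window (chr2:1744466-1744765, minus strand) held 42 CpGs and the MAN1C1 window (chr1:25616541-25616840, plus strand) 57. CpG-rich starts were thus found on both sides of the range. Among the other genes with the widest gap, ILDR2 above held 47. PPARGC1A, KCNJ2 and CRACD below held 42, 39 and 37. The 14 windows ran from 2 CpGs (DCLK1 and PNLIPRP3) to 57 (MAN1C1). The GPNMB window (chr7:23246525-23246824, plus strand) held 3. ZNF562 (chr19:9675051-9675350, minus strand) and ZNF823 (chr19:11738897-11739196, minus strand) held 18 and 17. Over sets, the median was 26 CpGs in 1285 genes above and 23 in 1218 below, beside 25 in all 11159 tested genes with a window. With a gap over 0.5 it was 21 in 85 genes above and 20 in 55 below. Each window was searched on both strands for 4 short motifs, none of which contains another: the E-box CACGTG, the AP-1 motif TGANTCA, the TATA box (TATAAA) and the CCAAT box. CACGTG was found in 8.33% of windows above, 11.6% below, 9.71% of all tested genes and 7.26% of all 35114 windows in the table. TGANTCA was found in 5.21%, 5.99%, 4.98% and 7.71%, TATAAA in 5.76%, 8.29%, 6.56% and 11.5%, and CCAAT in 37.6%, 31.7%, 36.0% and 34.6%. With a gap over 0.5, the shares above and below were 9.41% and 9.09% for CACGTG and 8.24% and 14.5% for TGANTCA. For TATAAA they were 11.8% and 9.09%, and for CCAAT 30.6% and 32.7%. The GPNMB window held TGANTCA, and those of PXDN, MAN1C1 and ZNF823 held CCAAT. A match describes letters only.

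Matrix genes lay on both sides, and the enzymes that modify and crosslink collagen stood more often above than below. Of 24 tested crosslinking and processing genes, 8 lay above the range (33.3%, against 11.1% of all genes) and 2 below (8.33%, against 11.5%), and 1, PXDN, passed the test. The median difference was 0.15, against -0.01 over all genes, and 0.22 from U87MGR2 alone. Relative to its mean over the arrays, the median member was at 0.10 and 0.16 in U87MGL. It was at 0.12 and -0.21 in U87MG and at -0.01 and -0.25 in U87MGR. U87MG replicate 1 thus lay with U87MGL, and U87MG replicate 2 and U87MGR3 were lowest. LOX, the oxidase that starts collagen and elastin crosslinks, was at 12.99 and 12.84 in U87MGL, 11.78 and 10.22 in U87MG and 12.11 and 10.82 in U87MGR. The U87MGL arrays were highest, and U87MG replicate 2 and U87MGR3 lowest (difference 1.68, SE 0.51, limma adjusted p = 0.489). Against U87MGR2 alone it differed by 0.80, and PLOD2 by 0.97. PLOD2, a lysyl hydroxylase of collagen telopeptides, was at 12.80 and 12.48 against 10.60 to 11.67 (difference 1.51, SE 0.32). Below the range were ADAMTS2, which cleaves procollagen N-propeptides (-0.62), and PCOLCE, an enhancer of C-propeptide cleavage (-0.54, and -0.35 against U87MGR2). Quantile normalization put 4 genes below.

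Of 44 collagens and matrix glycoproteins, 6 lay above (13.6%, against 11.1% of all genes) and 3 below (6.82%, against 11.5%). Without U87MGR3 or with quantile normalization 5 lay below. The median difference was -0.04 (0.07 from U87MGR2 alone). COL13A1, a transmembrane collagen of adhesion sites, was at 10.94 and 11.06 in U87MGL, 7.53 and 6.11 in U87MG and 8.82 and 9.75 in U87MGR. U87MGR lay between the other groups, and the pooled difference of 2.95 (SE 0.90) did not pass (limma adjusted p = 0.494). FBN2, fibrillin-2, differed by 0.96, and THBS1, the matricellular thrombospondin-1, by 0.81. THBS1 was at 6.74 and 6.66 in U87MGL and 5.69 to 6.05 elsewhere, and its 3 further probe sets lay above the range as well. THBS2, its relative, went the other way: 8.73 and 8.81 in U87MGL and 9.80 to 10.39 in the other arrays (difference -1.28, SE 0.19, limma adjusted p = 0.124). The laminin chain LAMA1 differed by -1.66 and ECM1 by -0.94 (-0.62 against U87MGR2).

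Matrix proteases and inhibitors were evenly split, with 6 above and 6 below of 41 tested. This was 14.6% on each side, against 11.1% above and 11.5% below over all genes. ADAMTS6 was at 7.58 and 8.25 in U87MGL, 7.01 and 7.34 in U87MGR and 5.56 and 4.50 in U87MG, so both derivatives were above the parental line. ADAM12 differed by 0.70 and ADAM17, which sheds surface ligands, by 0.25. CTSS and CTSD, lysosomal cathepsins, differed by -1.01 and -1.04, and CSTB, an inhibitor of cathepsins, by -0.50. The distance from U87MGR2 was smaller in ADAMTS6 (0.90 against a pooled 1.81), ADAM12 (0.34) and CTSD (-0.53).

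Integrins and adhesion receptors had 8 of 36 tested members above (22.2%, against 11.1% of all genes) and 2 below (5.56%, against 11.5%). THY1 was the only one called. ALCAM, a homophilic adhesion molecule, was at 11.79 and 11.48 in U87MGL and 10.67 to 11.24 in the others, and the tetraspanin CD9 at 12.10 and 11.90 against 11.18 to 11.60. ALCAM differed by 0.65, and by 0.39 from U87MGR2 alone. A dimmer CD9 probe set lay below the range (-0.26). CTNNA2, the neuronal alpha-catenin, was at 5.14 and 5.58 in U87MGL, 7.07 and 6.59 in U87MG and 7.32 and 7.58 in U87MGR. It was the member farthest below (difference -1.78, SE 0.28, limma adjusted p = 0.136), followed by the integrin chain ITGB4 (-0.24, and -0.09 against U87MGR2).

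Genes of the cytoskeleton and of motility had 9 of 46 members above and 6 below. None passed in limma, while 4 higher and 5 lower had an unadjusted p under 0.05. The background for this limma count was 4.53% (higher) and 3.70% (lower) of the autosomal genes tested. EZR, ezrin, which links actin to the membrane, was at 9.53 and 9.39 in U87MGL, 8.51 and 8.02 in U87MG and 8.49 and 8.03 in U87MGR. The other 4 arrays overlapped and U87MGL was 2.30-fold higher (difference 1.20, SE 0.20, limma adjusted p = 0.145), with 3 of 4 further probe sets above the range. CNN1 and CNN3, actin-binding calponins, differed by 1.16 and 0.85. MYL9, a myosin light chain, was at 9.68 and 9.19 against 10.02 to 11.12 (difference -1.29, and -0.58 from U87MGR2 alone), RND3 differed by -0.62 and WASF3, an activator of actin branching, by -0.45.

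Axon guidance genes lay below more often than above. Of 42 tested, 9 lay below (21.4%, against 11.5% of all genes) and 5 above (11.9%, against 11.1%). Among the 4666 dimmest of all genes tested, 16.9% lay below. The list's median was -0.02, against -0.01 over all genes. None was called in limma (unadjusted p under 0.05: 3 higher, 1 lower). PLXNA4, a semaphorin receptor, was at 6.08 and 5.83 in U87MGL and 4.75 to 5.17 in the others. SEMA7A, a GPI-anchored semaphorin, was at 9.58 and 9.88 against 8.19 to 8.94, and SEMA4D differed by 1.00. EPHA7, an ephrin receptor, was at 4.41 and 4.24 in U87MGL, 4.91 and 5.17 in U87MG and 6.43 and 5.55 in U87MGR (difference -1.19, SE 0.40, and -2.11 from U87MGR2 alone), with the U87MGL arrays under the floor. The repellent SLIT2 differed by -0.58 and ROBO3, a receptor of the Robo family, by -0.33; from U87MGR2 alone they differed by -0.23 and -0.19.

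In the Wnt lists the members with the widest gaps were a secreted agonist and a secreted antagonist, on opposite sides. RSPO3, an R-spondin that strengthens Wnt signals by keeping Frizzled receptors at the surface, was at 5.70 and 6.26 in U87MGL, 8.82 and 9.88 in U87MG and 7.56 and 8.20 in U87MGR. DKK1, which blocks the co-receptors LRP5 and LRP6, was at 9.48 and 9.59 in U87MGL, 6.22 and 6.83 in U87MG and 7.31 and 8.15 in U87MGR. In both genes U87MGR lay between the other groups, and neither passed (RSPO3 -2.63, and -1.58 from U87MGR2 alone, SE 0.58, limma adjusted p = 0.287; DKK1 2.41, SE 0.48, limma adjusted p = 0.228). With separate means for U87MG and U87MGR, both passed, at 0.029 and 0.0207.

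Of 24 ligands, receptors and agonists, 4 lay above (16.7%, against 11.1% of all genes) and 3 below (12.5%, against 11.5%). Without U87MG replicate 2, 5 lay below (20.8%, against 15.9% of all genes). The receptor tyrosine kinase ROR1 was at 6.91 and 5.70 in U87MGL and 4.41 to 4.95, under the floor on average, in the others. WNT5B differed by 0.92 and WLS, which carries Wnt ligands to the surface, by 0.45. FZD1 differed by -0.50 and WNT11 by -0.22, and from U87MGR2 alone by -0.81 and -0.14. Of 20 antagonists, targets and feedback genes, DKK1 was the 1 above, with KREMEN1 (-0.45) and NKD2 (-0.11, and -0.03 against U87MGR2) below. The shares were 5.0% above and 10.0% below, both under those of all genes. Without U87MG replicate 2 there were 3 above and 4 below, without U87MGR3 or with median centring 3 above. FZD4 lay inside the range, at 6.87 and 6.63 in U87MGL, 6.95 and 6.45 in U87MG and 6.96 and 7.07 in U87MGR. Its difference of -0.11 (SE 0.21, limma adjusted p = 0.864) was smaller than its SE, and the difference from U87MGR2 alone was -0.21.

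Of 20 tested HOX genes, 3 lay above and 1 below. Beside HOXB6, HOXC4 differed by 0.23 and HOXC6 by 0.32, with gaps of 0.18 and 0.02, and HOXD4 by -0.47 (-0.25 against U87MGR2). Without U87MG replicate 2 there were 2 HOX genes below, without U87MGR3 3. Among 22 neural and glioma stem cell markers 3 lay above (6 without U87MGR3) and 0 below, and none passed in limma (1 at an unadjusted p under 0.05). The share above was 13.6%, against 11.1% of all genes, and 27.3% without U87MGR3, against 14.3%. The eye and forebrain factor PAX6 was at 8.71 and 8.66 in U87MGL and 7.64 to 8.11 in the others (difference 0.79, SE 0.17, limma adjusted p = 0.278). The Notch ligand JAG1 differed by 0.48, with a dimmer probe set below the range (-0.37), and CD44 by 0.21 (0.07 against U87MGR2). In the mesenchymal list of 26, 4 lay above and 4 below. This was 15.4% on each side, against 11.1% above and 11.5% below over all genes. CHI3L1, a secreted chitinase-like protein of the mesenchymal class of glioblastoma, was at 9.83 and 8.58 in U87MGL, 13.35 and 13.32 in U87MG and 10.46 and 10.10 in U87MGR. Both derivatives lay far below the parental line, and the U87MGL arrays were lowest (gap 0.27, limma adjusted p = 0.58). The pooled difference was -2.60, and that from U87MGR2 -1.26. The homeobox factor PRRX1 differed by -1.26 and S100A6 by -0.33 (-0.59 and -0.07 against U87MGR2), while S100A4 (1.19), YAP1 (0.39) and STAT3 (0.37) were above.

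**Figure D3:**
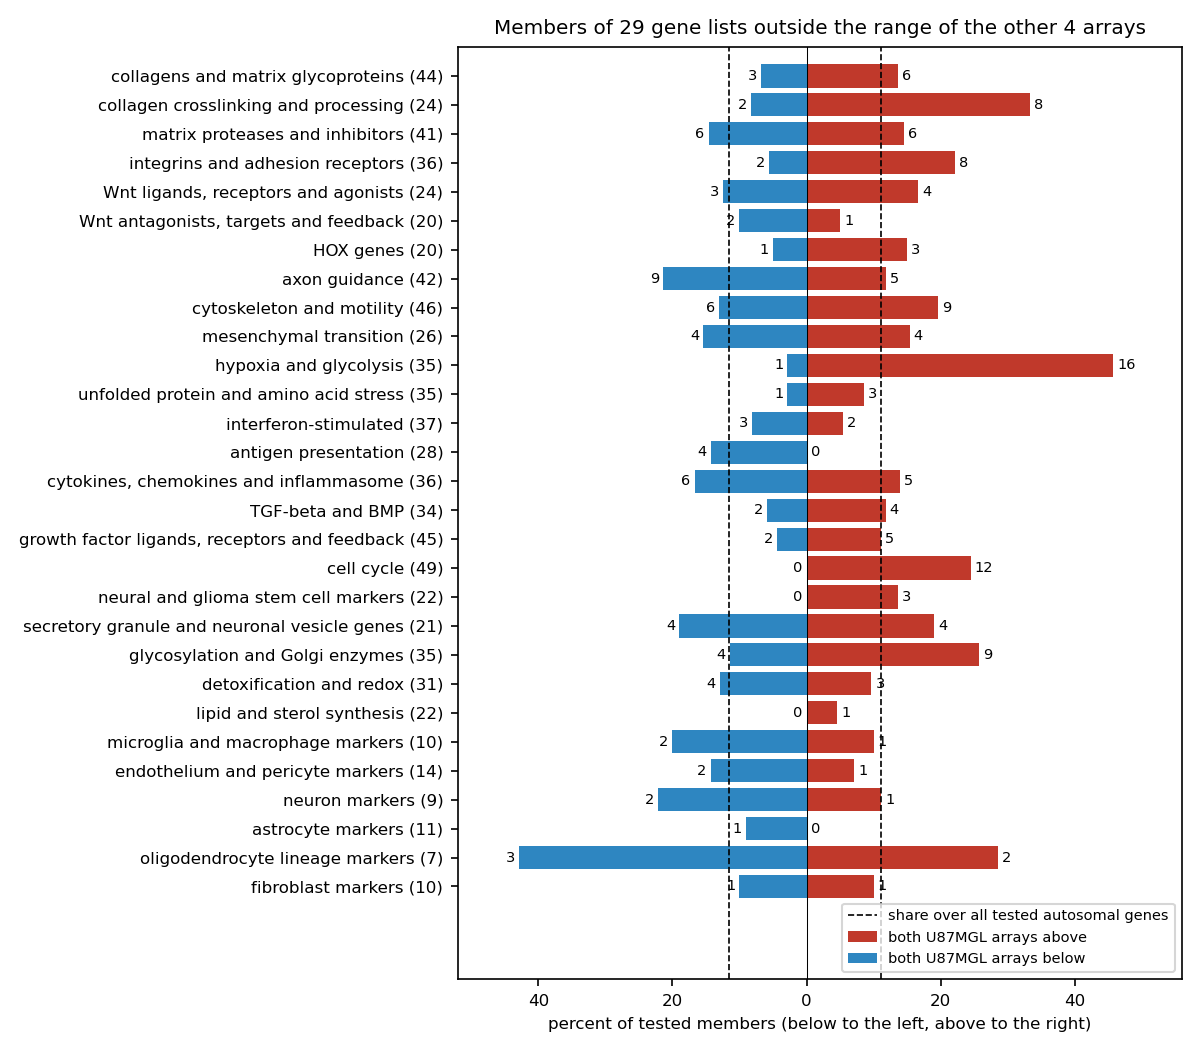
Share of the tested members of 29 gene lists (y axis, tested members in brackets) with both U87MGL arrays above (red, to the right) or below (blue, to the left) the other 4 arrays, in percent (x axis), with the number of genes at each bar. Dashed lines mark the shares over all 13998 genes, 11.1% above and 11.5% below; hypoxia and glycolysis reaches 45.7% above.

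Hypoxia and glycolysis genes had the highest share above of the 29 lists. Of 35 tested, 16 lay above the range (45.7%, against 11.1% of all genes) and 1 below (2.86%, against 11.5%). In 32 members the difference was above 0, and the median was 0.33. None passed in limma, and 8 had an unadjusted p under 0.05, each higher. SLC2A1, the glucose transporter GLUT1, was at 10.43 and 10.18 in U87MGL, 9.26 and 7.77 in U87MG and 9.42 and 7.88 in U87MGR. U87MGL was highest and U87MG replicate 2 and U87MGR3 were lowest (difference 1.72, and 0.89 from U87MGR2 alone, SE 0.51, limma adjusted p = 0.477). A second SLC2A1 probe set gave 7.51 and 7.25 against 4.39 to 5.82. BNIP3, a mitophagy receptor, was at 13.14 and 12.90 in U87MGL and 11.54 to 12.36 in the others, and the oxidase of the endoplasmic reticulum ERO1A at 10.99 and 10.97 against 9.47 to 10.44. EPAS1, which encodes HIF-2α, was the 1 member below (-0.31). From U87MGR2 alone ERO1A differed by 0.55, against a pooled 0.84, and EPAS1 by -0.19.

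The list followed the arrays as well as the groups. Relative to each gene's mean over the 6 arrays, the median member was at 0.26 and 0.20 in U87MGL, 0.12 and -0.27 in U87MG and 0.02 and -0.47 in U87MGR. Its 2 low arrays, U87MG replicate 2 and U87MGR3, were those that stood apart in ribosomal or GAPDH control probe sets, and the part of this in the result was not tested. Against U87MGR2 alone the median difference was 0.18. It was 0.27 without U87MG replicate 2 and 0.30 without U87MGR3.

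Cell cycle genes had 12 of 49 tested members above (24.5%, against 11.1% of all genes) and 0 below (against 11.5%). In 48 members the difference was above 0. The median difference was 0.49, none passed in limma (8 at an unadjusted p under 0.05), and the comparison partners differed. The median member, relative to its mean over the arrays, was at 0.28 and 0.37 in U87MGL and 0.33 and 0.15 in U87MGR, but at -0.38 and -0.76 in U87MG. Against U87MGR2 alone the median difference was 0.00. RRM2, a subunit of ribonucleotide reductase, was at 12.75 and 12.95 in U87MGL, 12.43 and 12.11 in U87MGR and 11.42 and 10.90 in U87MG. The pooled RRM2 difference was 1.14, and that from U87MGR2 0.42. Thymidylate synthase (TYMS) differed by 0.83 (0.41 from U87MGR2) and the replication helicase subunit MCM6 by 0.49.

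Antigen presentation ran the other way by the same partner. Of 28 tested genes, 0 lay above (against 11.1% of all genes) and 4 below (14.3%, against 11.5%). Without U87MGR3 9 lay below (32.1%, against 15.1% of all genes), and with quantile normalization 7 (25.0%, against 12.8%). The median difference was -0.37, and none was called in limma (1 at an unadjusted p under 0.05). The median member was at 0.31 and 0.38 in U87MG, and at -0.09 and -0.29 in U87MGL and -0.13 and -0.33 in U87MGR. The median was -0.24 without U87MG replicate 2, -0.48 without U87MGR3 and -0.05 against U87MGR2 alone. CTSS, which processes the class II invariant chain, was at 9.08 and 9.41 in U87MGL and 9.90 to 10.78 in the others, and the differences of PSMB8, an immunoproteasome subunit, and TAPBP, tapasin, were -0.40 and -0.34 (-0.13 and -0.04 from U87MGR2).

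Cytokine, chemokine and inflammasome genes had 5 of 36 above (13.9%) and 6 below (16.7%), against 11.1% and 11.5% of all genes. IL7R, the interleukin-7 receptor chain, was at 9.27 and 9.73 in U87MGL, 7.36 and 7.09 in U87MG and 7.65 and 7.98 in U87MGR (difference 1.98, SE 0.27, limma adjusted p = 0.117), and its second probe set lay above the range too. PYCARD, the inflammasome adaptor ASC, was at 7.13 and 7.43 in U87MGL, 6.30 and 6.56 in U87MG and 4.56 and 4.03 in U87MGR. Its pooled difference of 1.92 thus joined a difference of 0.85 from U87MG to one of 2.99 from U87MGR. TNFRSF11B, the decoy receptor osteoprotegerin, was at 5.38 and 7.31, so its replicates lay far apart, and under the floor on average in the others. PTGES, a prostaglandin E synthase, was at 8.79 and 9.07 in U87MGL and 9.84 to 10.73 in the others (difference -1.48, SE 0.27, limma adjusted p = 0.187). The chemokine CCL5 differed by -0.41 and the DNA sensor AIM2 by -0.63 (-0.27 from U87MGR2). Of 37 interferon-stimulated genes, 2 lay above (4 without U87MG replicate 2), OAS1 (0.51) and SAMD9 (0.62), and 3 below, EPSTI1 (-0.93), IFIT3 (-0.45) and GBP2 (-0.36). The shares were 5.41% above and 8.11% below, under those of all genes. Without U87MG replicate 2 the share above was 10.8%, against 13.6% of all genes. Of these interferon-stimulated genes, SAMD9 differed from U87MGR2 alone by 0.11, EPSTI1 by -0.52, IFIT3 by -0.29 and GBP2 by -0.07.

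Glycosylation and Golgi enzymes had 9 of 35 members above (25.7%, against 11.1% of all genes) and 4 below (11.4%, against 11.5%). HAS2, a hyaluronan synthase, was at 7.34 and 8.02 in U87MGL and 4.61 to 6.55 in the others (difference 1.98, SE 0.52, limma adjusted p = 0.378). MGAT2, an N-acetylglucosaminyltransferase of N-glycan branching, differed by 0.56 (0.32 from U87MGR2), and the branching enzyme GCNT2 by 2.32. Below the range with MAN1C1 were CHST2, a sulfotransferase (-0.74), and MAN1A1, the related mannosidase (-0.21).

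Genes of secretory granules and neuronal vesicles had 4 of 21 above and 4 below (8 below without U87MG replicate 2). SCG2, secretogranin II, was at 7.18 and 6.47 in U87MGL, 5.35 and 5.01 in U87MG and 3.74 and 4.44 in U87MGR (difference 2.19, SE 0.45, limma adjusted p = 0.238), the others being under the floor on average. RAB3B, a GTPase of secretory vesicles, differed by 0.98 (0.41 from U87MGR2) and SCG5 by 0.63. CADPS, a priming factor of dense-core vesicles, differed by -0.79 (-0.40 from U87MGR2), SV2A by -0.41 and RIMS1 by -0.16. Among TGF-beta and BMP genes 4 of 34 lay above, with ID2 at 0.75, BMPR2 at 0.61 and ID3 at 0.60, and 2 below, TGFB3 (-0.47) and FSTL3 (-0.22). The shares were 11.8% above, near the 11.1% of all genes, and 5.88% below, against 11.5%. Without U87MGR3 there were 7 and 4 (20.6% and 11.8%, against 14.3% and 15.1% of all genes). With median centring 7 lay above (20.6%, against 14.2%). BMPR2 (0.36), ID3 (0.27), TGFB3 (-0.19) and FSTL3 (-0.03) differed less from U87MGR2. Growth factor genes had 5 of 45 above, with HBEGF at 0.75, PDGFC at 0.46 and SPRED1 at 0.34, and 2 below, IGFBP4 (-0.95) and PDGFD (-0.25). The share above was 11.1%, equal to that of all genes, and the share below was 4.44%, against 11.5%. From U87MGR2 alone HBEGF differed by 0.45, SPRED1 by 0.13 and PDGFD by -0.11, and a dimmer HBEGF probe set lay below the range (-0.39). No gene of these 3 lists passed in limma, while an unadjusted p under 0.05 was found for 1, 4 and 3 higher and for 2, 1 and 0 lower.

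Detoxification genes had 3 of 31 above (9.68%, against 11.1% of all genes) and 4 below (12.9%, against 11.5%). Without U87MGR3 there were 5 and 7 (16.1% and 22.6%, against 14.3% and 15.1% of all genes). The efflux transporters ABCG2 and ABCC3 lay on opposite sides: ABCG2 was at 6.78 and 7.46 in U87MGL and 5.62 to 6.45 in the others, and ABCC3 at 7.31 and 7.24 against 7.87 to 8.57. The conjugating enzyme GSTM4 differed by -0.79 and ALDH3A1 by -0.43. SLC7A11, the cystine transporter, differed by 0.85 and PRDX1 by 0.13. From U87MGR2 alone ABCG2 differed by 0.68, against a pooled 1.04, ABCC3 by -0.60, against -0.92, SLC7A11 by 0.17 and PRDX1 by 0.06. Of 35 genes of the unfolded protein and amino acid stress responses 3 lay above, with HERPUD1 at 0.99 and VLDLR at 1.19 (0.48 from U87MGR2) beside SLC7A11, and ATF6 (-0.25) below. The shares were 8.57% above and 2.86% below, both under those of all genes. Of 22 lipid and sterol synthesis genes the fatty acid elongase ELOVL6 (0.65, and 0.09 from U87MGR2) was the 1 above and 0 lay below. The share above was 4.55%, against 11.1% of all genes. Without U87MGR3, 5 lay below (22.7%, against 15.1% of all genes). The median was -0.15, against -0.28 without U87MGR3, 0.02 without U87MG replicate 2 and 0.00 from U87MGR2 alone.

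Markers of other cells that a line taken from brain could carry were examined. Cells carried over from the host would be mouse cells, while the probe sets were matched to human genes. How far these probe sets read mouse RNA was not tested, so the levels cannot decide whether host cells were present. Of the markers tested, 1 of 10 for microglia lay above (CD163, 0.24) and 2 below (AIF1, -0.42; CD14, -0.28). For endothelium and pericytes it was 1 (CSPG4, 1.01) and 2 (TEK, -0.36; KCNJ8, -0.21) of 14, and for neurons 1 (SNAP25, 0.28) and 2 (MAP2, -1.33; GAD2, -0.27) of 9. For astrocytes it was 0 and 1 (SLC1A2, -0.21) of 11, and for the oligodendrocyte lineage 2 (CSPG4; UGT8, 0.86) and 3 (MBP, -0.49; CLDN11, -0.19; SOX10, -0.12) of 7. The shares above and below were 10.0% and 20.0% for microglia, 7.14% and 14.3% for endothelium and 11.1% and 22.2% for neurons. They were 0.0% and 9.09% for astrocytes and 28.6% and 42.9% for oligodendrocytes, against 11.1% and 11.5% of all genes. These lists held 7 to 14 tested genes, so their shares were coarse. Median centring left 0 endothelial, 0 astrocyte and 1 oligodendrocyte marker below. Without U87MGR3 there were 1 astrocyte marker above and 2 below (9.09% and 18.2%, against 14.3% and 15.1% of all genes). Further probe sets of TEK and MBP lay on the other side. A dimmer TEK probe set was at 6.07 and 6.26 in U87MGL and 3.85 to 5.46 in the others (difference 1.44), while the brightest lay below the range by 0.01. In MBP, 2 of 3 dimmer probe sets lay above, with differences of 0.77 and 0.58. From U87MGR2 alone AIF1 differed by -0.18, CSPG4 by 0.53, TEK by -0.08, MAP2 by -0.75, GAD2 by -0.13, SLC1A2 by -0.14 and UGT8 by 0.54. In U87MGL the mean of CD14 was under the floor. Of the markers on the array, 7 of 17 for microglia, 5 of 19 for endothelium and pericytes, 7 of 17 for neurons, 3 of 14 for astrocytes and 6 of 13 for oligodendrocytes were under the floor of 4.73 on average. Among defining markers, PTPRC, P2RY12, CDH5, MOG and NEFL were under it, while CSF1R (7.60), TREM2 (6.22), PECAM1 (6.28), VWF (5.56), KDR (5.72), SOX10 (6.28), RBFOX3 (5.34) and TUBB3 (12.75) were above. The summed signal of the microglia list was 9.52 and 9.53 in U87MGL and 9.56 to 9.70 in the others on the log2 scale. That of the oligodendrocyte list was 11.18 to 11.19 against 10.82 to 10.94, endothelium 10.58 to 10.71 against 10.54 to 10.67, neurons 13.16 to 13.28 against 12.65 to 13.32, and astrocytes 13.32 to 13.63 against 12.95 to 13.91. Fibroblast markers split widely, with a share of 10.0% on each side, near those of all genes. THY1 was high and 1 of 10 tested lay below (2 without U87MGR3): FAP, a serine protease of activated fibroblasts, was at 8.87 and 8.44 in U87MGL and 9.91 to 10.94 in the others (difference -1.70, SE 0.29, limma adjusted p = 0.154). The list's sum was 13.09 to 13.62 against 12.38 to 13.79. In such bulk samples fewer cells of a type and less RNA per cell cannot be told apart, and the part of such cells in the results was not tested.

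Set against each group in turn, limma called 408 autosomal genes higher (2.91%) and 252 lower (1.80%) in U87MGL than in U87MG, and 15 (0.107%) and 5 (0.0357%) than in U87MGR. These comparisons share the U87MGL arrays. Side by side, PXDN differed by 3.29 from U87MG and 3.42 from U87MGR, THY1 by 3.47 and 3.48, and HOXB6 by 2.44 and 2.64. For MAN1C1 the values were -3.17 and -2.55, for GPNMB -3.95 and -3.39, for DKK1 3.01 and 1.80, for COL13A1 4.18 and 1.72 and for FBXL16 -2.23 and -3.87. The first 3 genes lay at similar distances from both groups.

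Genes outside the range were not spread evenly along the chromosomes. Over all genes 11.1% lay above and 11.5% below. Each autosome was cut into 4 sections with equal numbers of tested genes in gene order. On chromosome 1, sections 3 and 4 held 724 genes, of which 163 lay below (22.5%) and 11 above (1.52%), with a median difference of -0.16 (18 above without U87MGR3). The median was -0.18 in section 3 and -0.13 in section 4, against -0.04 and 0.01 in sections 1 and 2. Relative to each gene's mean, the median of these 724 genes was -0.17 in U87MGL2 and -0.05 in U87MGL3, and 0.03 to 0.10 in the other 4 arrays. Both U87MGL arrays were low, and U87MGL2 was lower.

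Section 4 of chromosome 13 was alike, with 21 of 62 genes below (33.9%) and 4 above (1 with quantile normalization) and a median of -0.17; per array it was -0.18 in U87MGL2, -0.04 in U87MGL3 and 0.04 to 0.09 in the others. Chromosome 7 had 113 of 679 genes below (16.6%) and 33 above (4.86%; 51 without U87MGR3), but the partners differed: the median was 0.01 against U87MG and -0.21 against U87MGR. Per array, U87MGR2 and U87MGR3 were high there (0.13 and 0.17) and U87MG (-0.08 and -0.12) and U87MGL (-0.04 and -0.07) alike. On chromosome 18, sections 3 and 4 had 25 of 101 genes above (24.8%) and 5 below, with a median of 0.17, at 0.15 and 0.07 in U87MGL, 0.03 in each U87MGR array and -0.10 and -0.15 in U87MG. The pooled medians of 0.20 in section 3 and 0.13 in section 4 were 0.10 and 0.02 against U87MGR2 alone, and 10 genes lay below without U87MG replicate 2 (3 with quantile normalization). On chromosome 16, 31 of 167 genes of section 3 lay above (18.6%) and 10 below (5.99%). Section 4 had 36 of 167 above (21.6%) and 14 below (8.38%). The pooled medians of these sections were 0.06 and 0.09, and 0.11 and 0.11 against U87MGR2 alone.

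**Figure D4:**
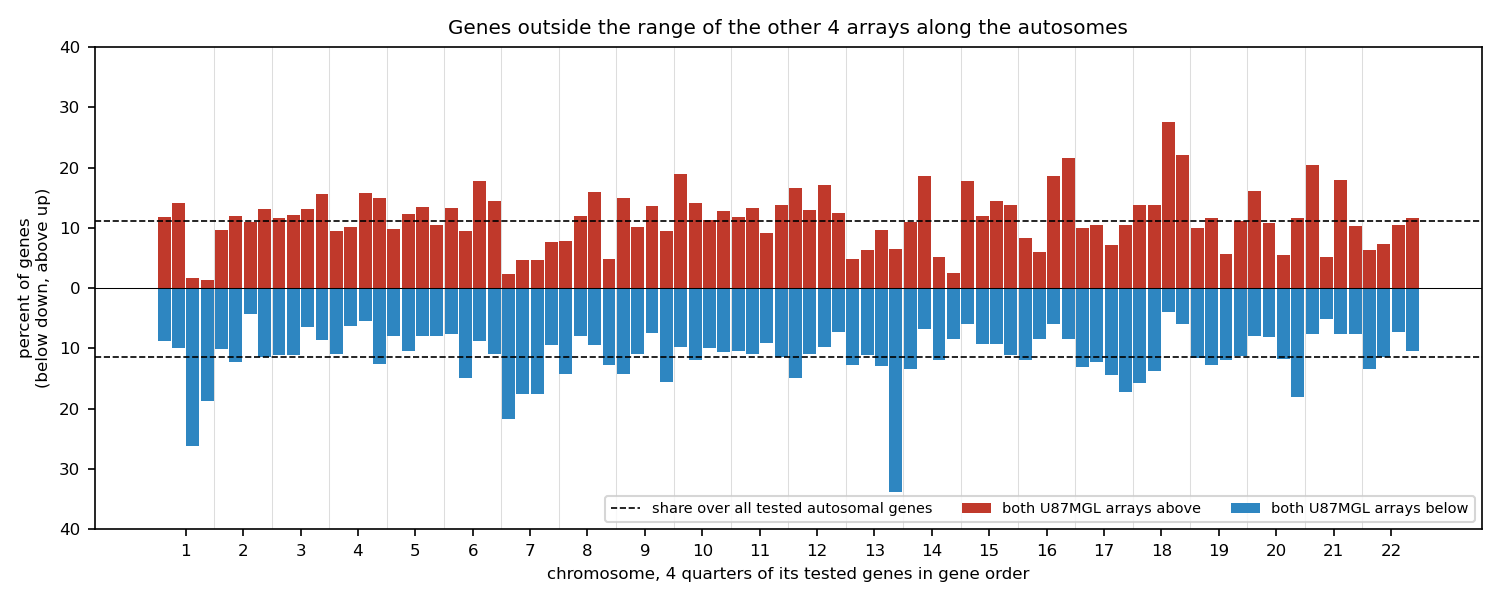
Share of tested genes with both U87MGL arrays above (red, up) or below (blue, down) the other 4 arrays, in percent (y axis), in 4 sections of each autosome in gene order (x axis). Dashed lines are the shares over all genes; the blue bars of sections 3 and 4 of chromosome 1 (26.2% and 18.8%) and of section 4 of chromosome 13 (33.9%) pass well below the dashed line.

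Zinc-finger genes of chromosome 19 stood out in U87MGL, a group chosen after its values were seen, so no test is given. ZNF genes encode C2H2 zinc-finger proteins, many of which carry a KRAB domain and repress transposable elements and genes, and they lie in clusters on chromosome 19. Of 127 tested ZNF genes of chromosome 19, 38 lay above (29.9%) and 4 below (3.15%), with a median difference of 0.08. The count below rose to 12 (9.45%) without U87MG replicate 2, 9 (7.09%) without U87MGR3 and 8 (6.30%) with quantile normalization. The other 871 genes of the chromosome had 58 above (6.66%; 88 without U87MGR3) and 115 below (13.2%; 148 or 17.0% without U87MG replicate 2), and the 185 ZNF genes of other autosomes 24 (13%) and 22 (11.9%). A gap over 0.5 was found in 12 ZNF genes of chromosome 19, in 4 of its other genes and in 1 ZNF gene elsewhere.

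The genes above were densest between ZNF557 and ZNF791 in gene order, limits also set after the values were seen. There 15 of 23 ZNF genes lay above (65.2%) and 0 below, with a median of 0.59. They were ZNF557, ZNF558, ZNF317, ZNF559, ZNF266, ZNF426, ZNF562, ZNF653, ZNF823, ZNF440, ZNF700, ZNF788P, ZNF136, ZNF44 and ZNF443. Of the 91 other genes in the same stretch 7 lay above (7.69%; 12 without U87MG replicate 2 and 11 without U87MGR3) and 8 below (8.79%; 14 without U87MG replicate 2), with a median of -0.05 (0.02 from U87MGR2 alone). Relative to each gene's mean, the median of the 23 ZNF genes was 0.37 in U87MGL2 and 0.38 in U87MGL3, -0.12 and -0.29 in U87MG and 0.01 and -0.22 in U87MGR. Both U87MGL arrays were thus above all others, and the distance to U87MGR2, alike in spike-in signal, was the smallest (a median difference of 0.37). The median differed by 0.61 from U87MG and by 0.51 from U87MGR. Without U87MG replicate 2 the median was 0.55, and without U87MGR3 0.53.

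ZNF562 was at 7.61 and 7.01 in U87MGL, 5.27 and 5.94 in U87MG and 5.48 and 4.77 in U87MGR (difference 1.95, SE 0.33, limma adjusted p = 0.154). ZNF559 was at 7.32 and 7.31 against 4.77 to 6.40, and ZNF823 at 6.86 and 6.49 against 5.02 to 5.78 (difference 1.40, and 0.90 from U87MGR2 alone). ZNF788P, in the same stretch, was the 1 gene of the family that limma called. Outside the stretch, ZNF875 was at 5.83 and 5.94 in U87MGL and 4.16 to 4.85, under the floor on average, in the others (difference 1.33, SE 0.22), and ZNF544 at 6.11 and 6.34 against 4.83 to 5.07 (difference 1.26, SE 0.15, limma adjusted p = 0.0703). Zinc-finger genes of a cluster are alike in sequence, and a probe set may read more than 1 of them. Of the 38 above, 10 had a further probe set past the floor, and in 4 of these 1 or more lay above the range.

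The promoter windows of ZNF562 and ZNF823 printed above come from this stretch. In windows of the 33 chromosome 19 ZNF genes above that had one, CCAAT was found in 69.7%, against 43.9% of 82 that were not above and 36.0% of all tested genes. The median CpG count was 19 and 22. The windows were chosen after the values were seen.

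**Figure D5:**
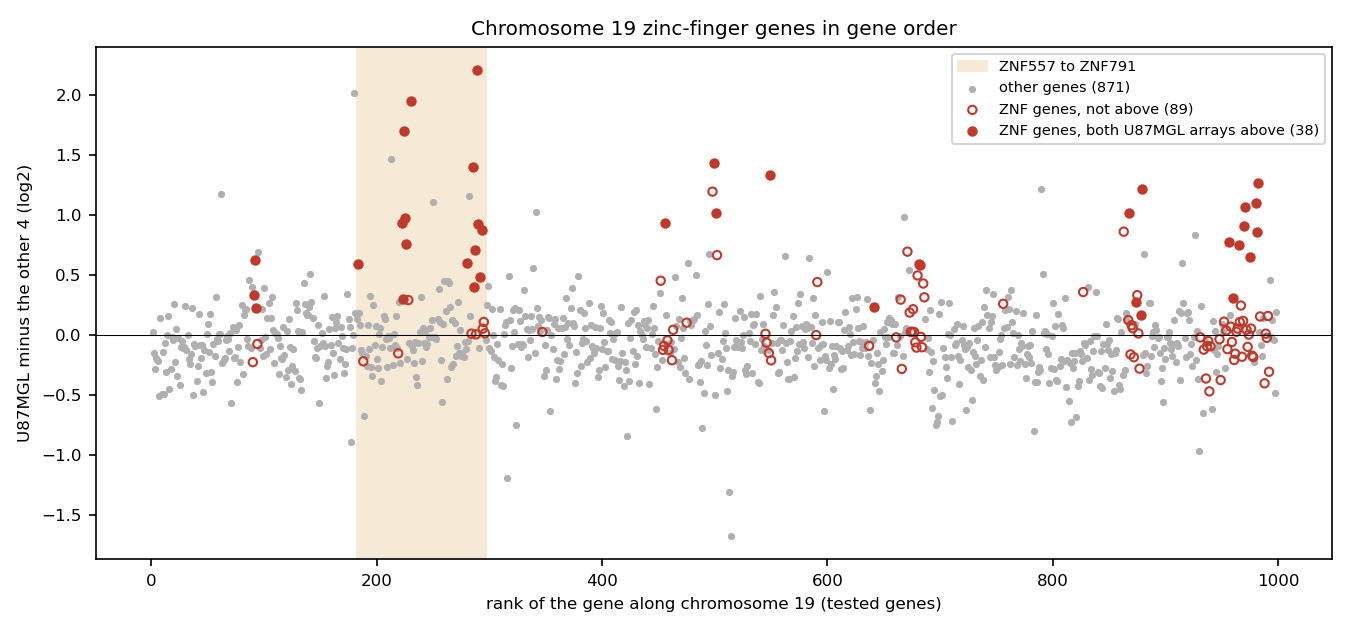
U87MGL mean minus the mean of the other 4 arrays (y axis, log2) against the rank of each tested gene along chromosome 19 (x axis). Filled red points are the 38 ZNF genes with both U87MGL arrays above, open red points the other 89 ZNF genes and grey points the 871 other genes; in the shaded stretch from ZNF557 to ZNF791 the filled points rise up to 2.20 while most grey points stay near 0.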

How the data were processed

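RNA of 2 arrays each of U87MG, U87MGL and U87MGR was measured. For 54675 probe sets the authors deposited signals on a log2 scale, from 2.38 to 14.58; how they were normalized is not stated in the labels or file header, and nothing was added. Of the probe sets, 41097 carried 1 gene symbol, 1801 several and 11777 none, and 99.9% of the first matched GRCh38.p14 by gene number, from which chromosome and gene order were taken.

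Each of 19775 genes was represented by the 1-symbol probe set with the highest mean. Genes with a mean at or above the 40th percentile of all probe sets (4.73) were tested: 14513, of which 13998 are autosomal. limma 3.58.1 in R 4.3.3 compared both U87MGL arrays with the other 4 pooled, with 4 residual degrees of freedom, and two-sided p-values were adjusted by Benjamini-Hochberg over all 14513. Precision is limited by having 6 arrays, with a median SE of 0.19 for a difference. The script was tested on simulated data. Position outside the range carries no test.

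The members, the 29 gene lists and the rule for naming genes were chosen with earlier results of these data known. Named were FZD4, the 12 widest gaps on each side, up to 3 members above and below in each list described (up to 2 as values where a list had none), the genes at the edge of the range, and all genes called where a direction had 5 or fewer; genes added later are said to be so. Equally numbered replicates did not deviate together (correlations over genes -0.09, 0.11 and 0.01). Sensitivity was examined for normalization, filter, probe set choice, group means, replicate and spike-in blocks, and each array left out.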

Additional observations from a re-analysis of the deposited data

Results flagged for a closer look

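Among the 4 arrays of U87MG and U87MGR, 1 array stood far from the other 3 in 10 of the 152 genes tested for it; chance marks about 1 group in 20. The low array was U87MGR3 for ADAM17 (8.94) and MCM6 (10.48), and U87MG replicate 2 for DLX3 (4.31) and SLN (5.46). The high array was U87MGR2 for ADAM12 (10.09), U87MG replicate 1 for EPSTI1 (7.15), IGFBP4 (9.31) and MAN1A1 (11.14), and U87MG replicate 2 for IFIT3 (8.46). For CSTB, U87MGR2 (13.79) lay below the other 3. In each of these genes both U87MGL arrays lay outside the range set by the 4 arrays, which is how most named genes were chosen. In ADAM12 and CSTB the array that stood apart lay on the near side of U87MGL and narrowed the gap. In ADAM17, MCM6, DLX3, SLN, EPSTI1, IGFBP4, MAN1A1 and IFIT3 it lay on the far side. There it left the gap unchanged and enlarged the pooled difference.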

How the results depend on the processing

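The counts of genes called, 5 higher and 2 lower, depended on the error model. Fits with a block for spike-in signal compared U87MGL with U87MGR2 alone. With a mean for each of the 3 groups limma called 58 and 51, of which 5 and 2 were among those of the pooled comparison. The replicate numbers did not pair the arrays, and a replicate block gave 3 and 0, a block of 2 or of 3 sets of arrays alike in spike-in signal 0 and 0 (142 and 126, and 190 and 184, at an unadjusted p under 0.05), no filter 10 higher, a 60th percentile filter 2 and 0 (387 lower unadjusted), quantile normalization 0 lower (617 unadjusted) and the mean of all probe sets 1 lower. Leaving out 1 array gave 0 to 4 higher and 0 to 0 lower. Genes above the range numbered 1901 to 2902 and below 2030 to 2833 with 1 array left out, since fewer arrays set the range; the 60th percentile filter, which tests fewer genes, left 1000 below. Quantile normalization turned the split to 1192 above and 1796 below, and median centring to 1982 and 1222. Of single genes inside or near the range, FZD4 ran from -0.24 to 0.01 with 1 array left out (0.01 without U87MGL3), and ATF6 (0.18), MBP (0.04) and TEK (0.54) turned sign with the mean of all probe sets, since their further probe sets differed the other way; the cause for FZD4 was not tested. Small counts of list members also moved with the scaling. Median centring left 0 below in the HOX, hypoxia and Wnt antagonist lists (1, 1 and 2) and 1 of 2 integrins. Quantile normalization left 1 of 2 below among integrins, Wnt antagonists and endothelial markers, 1 of 2 interferon-stimulated genes above, and put 1 lipid gene below. With 2 against 4 arrays, a difference that was not called is not shown to be absent.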
